A study of Mus musculus with 4 samples.

Results

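The cells described here are the stimulated CD4 T cells of the spleen with the most transcripts of the Nr4a family, chosen separately in each of 4 single-cell libraries. A barcode was eligible with at least 2000 UMIs (unique molecular identifiers, which count captured mRNA molecules), at least 500 detected genes, at most 10% mitochondrial UMIs, at least 1 UMI of Cd3d, Cd3e or Cd3g, fewer than 2 UMIs of Egr3 and none of Foxp3. The score of a cell was the sum of its Nr4a1, Nr4a2 and Nr4a3 UMIs divided by all its UMIs, and the 10% of eligible cells with the highest score were taken in each library. This gave 1553 members of 15524 eligible cells, among 19313 barcodes with 2000 UMIs or more. With KO for the label Irf5-/-, the members numbered 501 in the library labelled female KO, 528 under the label male KO, 147 under female WT and 377 under male WT. Values for the 4 libraries are given in this order throughout. The other 13971 eligible cells are called the remaining cells.

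The study sorted CD3+CD4+ T cells from spleens of C57BL6/J mice that were Irf5-/- or WT, and kept them for 6 hours with Dynabeads carrying anti-CD3 and anti-CD28, so every library was stimulated and none was left at rest. Each genotype had 1 female and 1 male library, made with the 3′ v3.1 chemistry of 10x Genomics. Irf5 encodes a transcription factor best known downstream of Toll-like receptors. The labels name neither the age and number of the mice behind a library nor the part of Irf5 that was deleted, so p-values over libraries measure only the spread between these 4 libraries.

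NR4A proteins are orphan nuclear receptors: they bind DNA as transcription factors, and no ligand is needed for their activity. Their genes are immediate early genes, switched on within the first hours after a T cell receptor is engaged, and Nr4a1 reporters are widely used to mark T cells that have received an antigen receptor signal. In T cells the family is known for restraining activation and for its part in tolerance, exhaustion and the regulatory T cell program.

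The promoters of the genes that chose the cells, and of Nfkbid, which was given as a marker with the rule, are shown as the sequences at the starts of the genes that define these cells. Each line holds the 250 bases before the start listed in RefSeq on GRCm38.p6, read 5′ to 3′ on the strand of the gene. Capitals mark TGACG, the half-site of the cAMP response element bound by CREB and ATF factors, on either strand (TGACG or CGTCA).
Nr4a1 (chr15:101266596-101266845, plus strand): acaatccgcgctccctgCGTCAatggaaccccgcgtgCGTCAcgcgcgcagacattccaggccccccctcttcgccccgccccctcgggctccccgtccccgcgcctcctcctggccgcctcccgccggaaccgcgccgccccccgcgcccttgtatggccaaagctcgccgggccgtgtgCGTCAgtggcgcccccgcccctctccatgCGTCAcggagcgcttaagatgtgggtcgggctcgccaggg
Nr4a2 (chr2:57124004-57124253, minus strand): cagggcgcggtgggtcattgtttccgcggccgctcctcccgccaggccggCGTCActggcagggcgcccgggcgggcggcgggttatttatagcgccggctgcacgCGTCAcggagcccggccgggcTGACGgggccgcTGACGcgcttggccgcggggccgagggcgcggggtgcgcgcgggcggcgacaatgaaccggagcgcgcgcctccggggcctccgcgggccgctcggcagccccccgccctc
Nr4a3 (chr4:48045055-48045304, plus strand): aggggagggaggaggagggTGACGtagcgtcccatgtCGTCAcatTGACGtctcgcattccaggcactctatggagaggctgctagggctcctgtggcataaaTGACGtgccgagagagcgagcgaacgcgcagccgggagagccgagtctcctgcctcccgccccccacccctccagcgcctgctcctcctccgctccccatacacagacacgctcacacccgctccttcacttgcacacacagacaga
Nfkbid (chr7:30422156-30422405, plus strand, the second of 3 listed starts): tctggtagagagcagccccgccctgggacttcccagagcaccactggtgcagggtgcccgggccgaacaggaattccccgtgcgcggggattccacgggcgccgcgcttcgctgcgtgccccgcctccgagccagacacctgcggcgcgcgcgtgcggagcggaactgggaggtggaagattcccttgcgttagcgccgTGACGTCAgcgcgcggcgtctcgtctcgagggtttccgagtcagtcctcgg
Each of the 3 Nr4a promoters held 4 half-sites. At least 1 was present in 17.8% of all 32851 listed promoters over the same 250 bases, and 4 or more were present in 45 of them (0.137%). The full palindrome TGACGTCA, which counts as a half-site on both strands, stood in the printed Nfkbid promoter and in 1.55% of all promoters, and in none of the 3 Nr4a windows. The Nr4a1 and Nfkbid windows lie inside the annotated spans of their genes in GENCODE M21, which start further upstream (101254269 and 30421732). The Nr4a3 window lies partly inside its gene, whose annotated span starts at 48045153. The window of Tnf (chr17:35202008-35202257, minus strand) held no match, as did those of the other 2 starts of Nfkbid. The motif was chosen after its matches had been seen, and a match of letters is a description, not a binding site.

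The members were chosen by their measured Nr4a UMIs, so these values are described without a test. Scores of members had medians of 37.3, 35, 40.5 and 31.2 Nr4a UMIs per 10000 UMIs, against 1.80, 2.07, 2.47 and 1.77 in the remaining cells. No Nr4a UMI at all was found in 42.1%, 37.8%, 34.3% and 35.2% of the remaining cells. The boundary was continuous: the lowest members scored 24.54, 23.51, 27.27 and 20.49 per 10000, and the highest remaining cells 24.53, 23.49, 27.24 and 20.49 per 10000. A member held at least 6 Nr4a UMIs, with medians of 19, 24, 32 and 30.

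Nr4a1, which encodes NUR77, made up about 50% of the members' Nr4a UMIs (52.6%, 49.6%, 50.5% and 53.4%). Its level over the members was 2145, 1905, 2172 and 1796 UMIs per 1000000 UMIs (CPM, computed on counts summed over the cells of a class in a library), and over the remaining cells 260, 266, 287 and 237 CPM. Nr4a3, which encodes NOR1, stood at 1458, 1399, 1549 and 1079 CPM in the members and at 180, 195, 246 and 155 CPM in the remaining cells. Nr4a2, which encodes NURR1, was the least abundant, at 475, 538, 577 and 490 CPM against 43.4, 47.5, 68.0 and 40.2 CPM. All 3 genes had a UMI in 62.1%, 66.9%, 78.2% and 76.4% of members, and this share was larger in the 2 libraries labelled WT, whose members also had the higher median depth (7957 and 9182 UMIs, against 4731 and 6469 UMIs in the libraries labelled KO). Members held 44.7%, 41.6%, 42.5% and 43.6% of the Nr4a1 UMIs of eligible cells, so most of these transcripts lay below the boundary.

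Cells that the rule removed for 2 or more Egr3 UMIs (355, 588, 190 and 516 cells) had Nr4a levels close to the members, with 1958, 1731, 2116 and 1619 CPM of Nr4a1. Of them, 68.2%, 66.7%, 69.5% and 65.3% scored at or above the lowest member of their library. Cells with a Foxp3 UMI reached it in 4.98%, 12.1%, 17.5% and 17.4% of 261, 340, 40 and 155 cells. The members are thus the Nr4a-high cells with fewer than 2 Egr3 UMIs, not all Nr4a-high cells of these cultures.

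**Figure D1:**
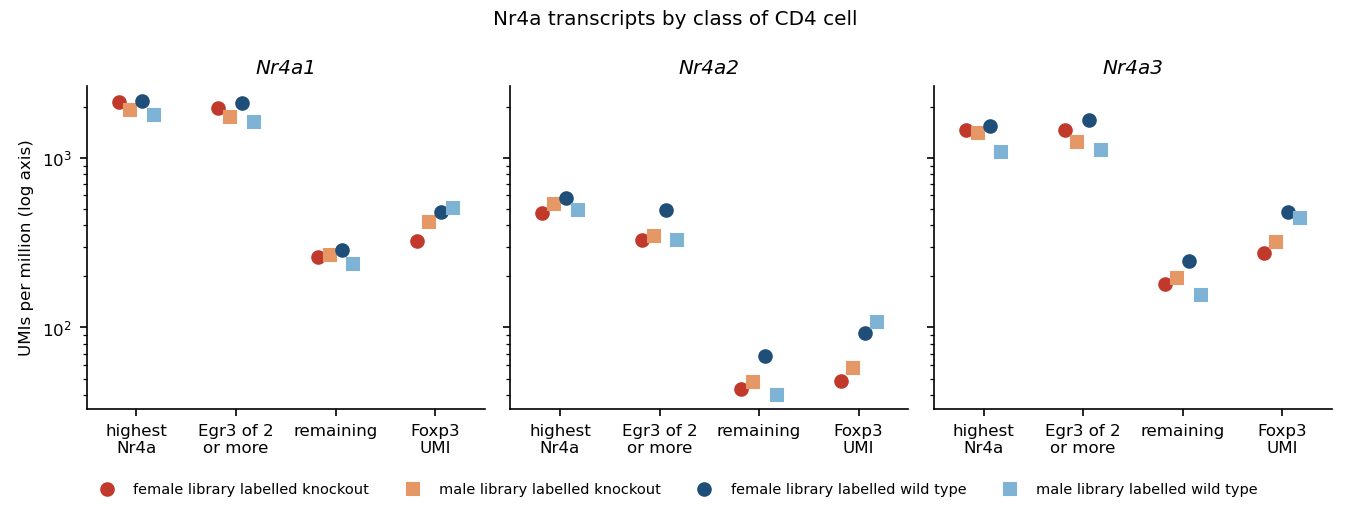
CPM (log axis) of Nr4a1, Nr4a2 and Nr4a3 in the highest-Nr4a cells, cells with 2 or more Egr3 UMIs, remaining cells and cells with a Foxp3 UMI, 1 point per library. In every library the highest-Nr4a cells lie far above the remaining cells, which follows from the rule, and the Egr3 cells lie close to them (Nr4a1 1619 to 2116 CPM against 1796 to 2172 CPM).

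Facts that touch all results are as follows. The libraries held 28841161 to 55850754 UMIs, and droplets under 200 UMIs held 8.62%, 9.56%, 36.2% and 14.7% of them. Irf5 went against the labels: over all eligible cells it was at 8.35 and 7.97 CPM in the libraries labelled KO and at 0.915 and 0.725 CPM in those labelled WT (log2 difference 3.29, edgeR adjusted p = 4.42e-06). 3′ counts can come from outside a deleted part, so they check the labels only in part, and every genotype direction below is by label. Pairs of libraries shared 1 to 9 eligible barcodes and no member. Members had fewer UMIs than the remaining cells of their library in all 4 libraries (medians of 5308, 6913, 8634 and 9881 UMIs in the remaining cells) and a slightly lower median mitochondrial share (3.39 to 3.49% against 3.84 to 3.95%). The list of 8 CD4 T cell genes (Trac, Trbc1, Trbc2, Cd4, Lck, Cd28, Thy1 and Cd2) summed to 2210 to 2550 CPM in members and 2600 to 2930 CPM in remaining cells. Most of these genes are shared by all T cells, so the sum cannot tell CD4 cells from other T cells. Tested against the remaining cells below, 3 of the 8 were higher in members and 5 lower (median -0.70). Of all genes tested, 29.9% were higher and 32.3% lower. Cd8a, Ms4a1, Pax5, Cd14, Adgre1, Tyrobp, Ncr1, Klf1 and Pf4 were at 0 in the members of all libraries. The summed B cell list (13 genes, 5 of them at 0) was at 42.3 to 120 CPM in members and 43.7 to 680 CPM in remaining cells. Of its 5 tested genes, 3 were higher in members and 2 lower (median 1.03; -0.32, 0.5, 2.44 and 0.41 within the single libraries). Cd74, H2-Aa and H2-Ab1 were higher by 1.198, 1.126 and 1.026, and Igkc and Ighm lower by -3.858 and -2.708. In the library labelled female KO, 5 of the remaining cells held 98.0% of the Igkc UMIs of that class. The myeloid list (14 genes, 7 at 0) was at 16.5 to 24.0 against 35.7 to 72.7 CPM, and the list of NK and innate-like T cell genes (14 genes, 5 at 0) at 5.14 to 18.5 against 20.4 to 40.1 CPM. In the erythroid list (13 genes, 5 at 0; 406 to 451 CPM against 251 to 419 CPM), Tfrc, the transferrin receptor that activated T cells also make, gave 401 to 438 CPM in members. The CD8 list of 2 genes stood at 5.60 to 9.22 CPM and 8.29 to 10.2 CPM.

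Which other transcripts marked the members was asked by comparing them with the remaining cells of the same library. Members carried far more transcripts of immediate early factors, of the NF-κB regulator Nfkbid, and of the cytokines Tnf and Lif. They carried far fewer of the recirculation and survival receptor genes S1pr1 and Il7r. The low S1pr1 and Il7r levels were shared by the remaining cells with scores just below the boundary. Means over the libraries were 4.53 and 13.6 CPM there and 4.65 and 20.7 CPM in members. The test was edgeR's quasi-likelihood test on UMI counts summed per library and class with the library as a block, called at an adjusted p under 0.05, without the 8 genes of the rule. It called 6257 of 10057 genes (62.2%), 3009 higher in members (29.9%) and 3248 lower (32.3%), and since the rule itself separates these classes, the calls and sizes are given as a description. Among called genes, 306 were higher and 1300 lower by more than 1 on the log2 scale, and 5859 went in 1 direction in all 4 libraries. The median over all genes tested was -0.05. When the score was taken from a random 50% of each cell's UMIs and the differences from the other 50%, 4967 genes were called. All 88 named genes tested kept their direction and call. These genes had been chosen on the full counts, and 429, 451, 131 and 339 members were taken again, so this too is a description.

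Nfkbid, which encodes the nuclear IκB protein IκBNS that binds NF-κB subunits, was at 971, 878, 777 and 822 CPM in members and at 129, 139, 144 and 140 CPM in remaining cells. The lowest library of the members was above the highest library of the remaining cells, and the difference was 2.75 on the log2 scale (SE 0.0481). Tnf, the inflammatory cytokine also given as a marker, was at 177, 177, 227 and 277 CPM against 46.6, 50.9, 52.9 and 62.3 CPM (log2 difference 2.09, SE 0.0561). Both libraries labelled WT stood above both libraries labelled KO for Tnf in members. After every cell was thinned to 2000 UMIs, a Nfkbid UMI was found in 76.0%, 74.2%, 71.4% and 72.1% of members and in 17.7%, 17.7%, 19.5% and 17.9% of remaining cells. Without thinning these shares were 91.4%, 92.6%, 94.6% and 95.2%, and 34.0%, 39.3%, 43.4% and 48.2%. A Tnf UMI was found in 25.1%, 23.3%, 27.9% and 32.9% of thinned members against 6.77%, 7.29%, 7.85% and 8.84% of remaining cells. In 52 thinned erythroid cells of the same libraries (3 or more UMIs of 6 red cell genes), which should lack both genes, neither was found. This allows a share of up to 5.77% by a limit of 3 counts, and the exact 95% interval reaches 6.85%. Without thinning, at medians of 12054 to 17086 UMIs, a Nfkbid UMI was found in 10.5%, 0%, 0% and 23.1% of these 19, 4, 16 and 13 cells and a Tnf UMI in 5.26%, 0%, 0% and 7.69%. Members held 42.5%, 38.6%, 34.5% and 37.5% of the Nfkbid UMIs of eligible cells and 27.2%, 25.7%, 29.5% and 31.2% of the Tnf UMIs.

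Of 24 tested genes of the immediate early transcription factor list, 20 were higher in members, 1 was lower and 3 were not called, with a median of 1.56. Egr1, a zinc finger factor induced by MAP kinase signals, was at 626, 594, 554 and 454 CPM in members against 69.8, 86.1, 76.7 and 65 CPM (log2 difference 3.0, SE 0.0497). Fosl2, an AP-1 subunit, was at 248, 226, 278 and 175 CPM against 39.8, 44.1, 39.8 and 28.3 CPM. Atf3, a stress-induced member of the ATF family, was at 463, 459, 431 and 256 CPM against 88, 90.2, 95 and 64.7 CPM. Egr2, which is known both for T cell activation and for anergy, differed by 2.22. In all 4 of these genes the lowest library of the members was above the highest library of the remaining cells, and for Egr1, Fosl2 and Atf3 the library labelled male WT was the lowest in both classes.

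NF-κB subunits and inhibitors were mostly higher as well, with 17 of 21 tested genes higher, 3 lower and 1 not called (median 0.94). Rel, which encodes the c-Rel subunit, was at 994, 1040, 1010 and 942 CPM against 277, 305, 288 and 247 CPM (log2 difference 1.94). Nfkb1, Nfkb2, Rela and Relb, the other 4 subunit genes, were higher by 1.40, 1.15, 1.01 and 0.94. The feedback inhibitors Nfkbia and Tnfaip3 were higher by 0.92 and 0.97.

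Cytokines were higher in 13 of 19 tested genes and lower in 5, and 1 was not called. The median of the fitted differences was 1.71, while the medians within the single libraries were 0.94, 1.01, 0.77 and 1.93, so the library labelled male WT stood above the others. Lif, a cytokine of the IL-6 family, was at 109, 75.9, 128 and 47.3 CPM against 17.7, 16.0, 20.3 and 10.6 CPM (log2 difference 2.50). Tnfsf11, which encodes RANKL, and Lta, which encodes lymphotoxin alpha, were higher by 1.91 and 1.88. Il2, the growth factor of activated T cells, was higher by 1.5 in the fit, at 212, 166, 109 and 334 CPM in members against 75.8, 87.3, 83.4 and 76.5 CPM. Its transcripts lay in few cells: 51, 46, 16 and 66 members had any, and the top 5 of them held 45.8%, 67.0%, 84.3% and 52.8% of the members' Il2 UMIs. Without the cell with the most Il2 UMIs in each class, members were at 170, 73.6, 64.7 and 279 CPM against 70.7, 71.0, 68.9 and 73.5 CPM, so the libraries labelled male KO and female WT then showed little or no excess. After thinning, an Il2 UMI was found in 8.38%, 5.87%, 6.12% and 11.4% of members, 4.68%, 4.47%, 5.06% and 4.75% of remaining cells and 1.92% of the 52 erythroid cells. Ifng and Csf2, also among the 13, rested on few cells too. Ifng was found in 4, 6, 1 and 3 members, and without the cell with the most UMIs in each class it was at 2.01, 3.44, 0 and 1.40 CPM in members against 2.92, 6.54, 1.17 and 1.85 CPM. Csf2 without those cells was at 5.22, 9.15, 12.1 and 24.4 CPM against 6.57, 10.4, 3.85 and 6.34 CPM, higher only in the libraries labelled WT. Il4 and Il13, cytokines of type 2 helper cells, were lower, by -1.07 and -1.78. Ccl3 was higher in the fit by 2.23, yet it was found in 2, 3, 0 and 7 members, and its call was lost without the library labelled male WT (log2 difference 0.87, adjusted p = 0.0671) and with DESeq2 (adjusted p = 0.578).

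Genes of activation, a list mostly of surface receptors and transporters with Odc1 and 3 Gadd45 genes, were mostly higher, 17 of 22 with 2 lower and 3 not called (median 0.81). Cd69, an early activation marker that retains T cells in tissue, was at 3130, 3040, 3240 and 2920 CPM against 964, 1010, 991 and 1040 CPM (log2 difference 1.71). Plaur, the urokinase receptor, was at 91.8, 99.6, 111 and 95.2 CPM against 19.0, 18.5, 17.2 and 16.6 CPM. Gadd45b, a stress-response gene, was higher by 2.01. Among 20 costimulatory and inhibitory receptors, 12 were higher and 5 lower, with 3 not called. Slamf1, Cd274 (PD-L1) and Vsir (VISTA) were higher by 1.73, 1.69 and 1.68, and Tnfrsf4 (OX40) and Icos by 0.54 and 0.48. Slamf6, Cd28 and Lag3 were lower, by -2.49, -1.5 and -0.93, and Tnfrsf9 (4-1BB) by -0.18 in the fit, with the library labelled male WT at 106 against 108 CPM. Genes of hyporesponsiveness, for which the family is known, showed no common direction: 8 of 20 were higher, 8 lower and 4 not called, with a median of 0.00. Nfatc1 and Tox were higher by 1.44 and 0.71, and Prdm1 and Maf lower by -2.15 and -1.24. Feedback genes of the MAP kinase and receptor pathways were split too, 15 higher and 8 lower of 29. Dusp2, a phosphatase of MAP kinases, was at 823, 771, 691 and 798 CPM against 218, 234, 213 and 222 CPM, while Dgka, which removes diacylglycerol, was lower by -1.92 and Socs3, an inhibitor of cytokine receptors, by -2.40.

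Genes of the naive and recirculating state were lower in 22 of 25 cases and higher in 2 (median -1.70). S1pr1, the receptor for exit from lymphoid tissue, was at 2.40, 9.99, 2.57 and 3.64 CPM in members against 61.7, 65.9, 63.5 and 61.3 CPM (log2 difference -3.48, SE 0.165). Il7r, the receptor of the survival cytokine IL-7, was at 19.6, 34.0, 12.0 and 17.1 CPM against 113, 145, 120 and 211 CPM. The male library labelled KO had the highest member level of both genes. Ets1, a factor of resting T cells, differed by -2.59. Memory and effector genes were lower in 13 of 19 and higher in 1, with 5 not called. S100a6 and Lgals3, which such cells carry, were found at most at 1.71 CPM in any library's members.

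Growth genes differed by less but more evenly. Ribosome biogenesis genes were higher in 30 of 31 cases and lower in 1, with a median of 0.58. Wdr43, a factor of the small ribosomal subunit, was at 799, 766, 785 and 758 CPM against 464, 443, 418 and 427 CPM, and Nop56, of the snoRNA particles, was higher by 0.88. Cytosolic ribosomal protein genes were lower in 19 of 27 and higher in 4, by small amounts (median -0.07; Rps2 -0.31). Glycolysis genes were lower in 9 of 15 and higher in 4 (median -0.33), with Pdk1, which limits pyruvate oxidation, lower by -1.77 and Gapdh by -0.82. Of 22 proteasome and chaperone genes 11 were higher and 6 lower. The endoplasmic reticulum chaperone Hspa5 was higher by 0.83. Survival genes were higher in 12 of 22 and lower in 6. Cflar, which blocks death receptor signals, and Fasl were higher by 1.18 and 1.22, and Bcl2 was lower by -1.24. Of 13 lineage factors and receptors of helper subsets, 4 were higher and 6 lower, among them Tbx21 (T-bet), which was higher by 1.94, and Eomes, lower by -2.72.

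The remaining cells were split by score to see where along it each gene changed. The classes were cells with a score of 0 (5340 cells), 4 equal classes of the remaining cells with an Nr4a UMI, Q1 to Q4 from low to high score (2159, 2158, 2156 and 2158 cells, cut within each library) and the 1553 members. The values below are means over the 4 libraries. Depth differed between classes, with median UMIs per cell of 3719 to 6572 at a score of 0, 6850 to 11928 in Q1 and 4731 to 9182 in members, and its part in the levels was not tested. Egr1 rose at every step, from 16.6 CPM at a score of 0 through 34.8, 61.7, 95 and 208 CPM to 557 CPM in members. Nfkbid did the same, from 33.9 through 74.7, 111, 189 and 358 to 862 CPM, as did Tnf, from 15.9 to 214 CPM, and Irf8, from 122 to 633 CPM.

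The step from Q4 to members differed between genes. Ncl, which encodes nucleolin, was at 2060 CPM at a score of 0, at 4170 CPM in Q1, at 5170 CPM in Q4 and at 5194 CPM in members (log2 difference of members from Q4 0.01, adjusted p = 0.591 in edgeR). Npm1, which encodes nucleophosmin, was at 4914 CPM in Q4 and at 4493 CPM in members. Myc, a transcription factor of growth, was at 434 CPM in Q4 and at 644 CPM in members (log2 difference 0.59), and Odc1, an enzyme of polyamine synthesis, at 1073 and 1405 CPM (0.37). Irf4, a factor that scales with receptor signal strength, went from 307 to 873 CPM over the remaining classes and was at 902 CPM in members. Tnfrsf9 had its highest mean in Q3, 144 CPM, and was at 89.1 CPM in members, lower than in Q4 in all 4 libraries. S1pr1 and Il7r were at 181 and 437 CPM at a score of 0 and at 38.8 and 85.0 CPM in Q1. Both were already low in Q4, at 4.53 and 13.6 CPM, and were at 4.65 and 20.7 CPM in members.

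**Figure D2:**
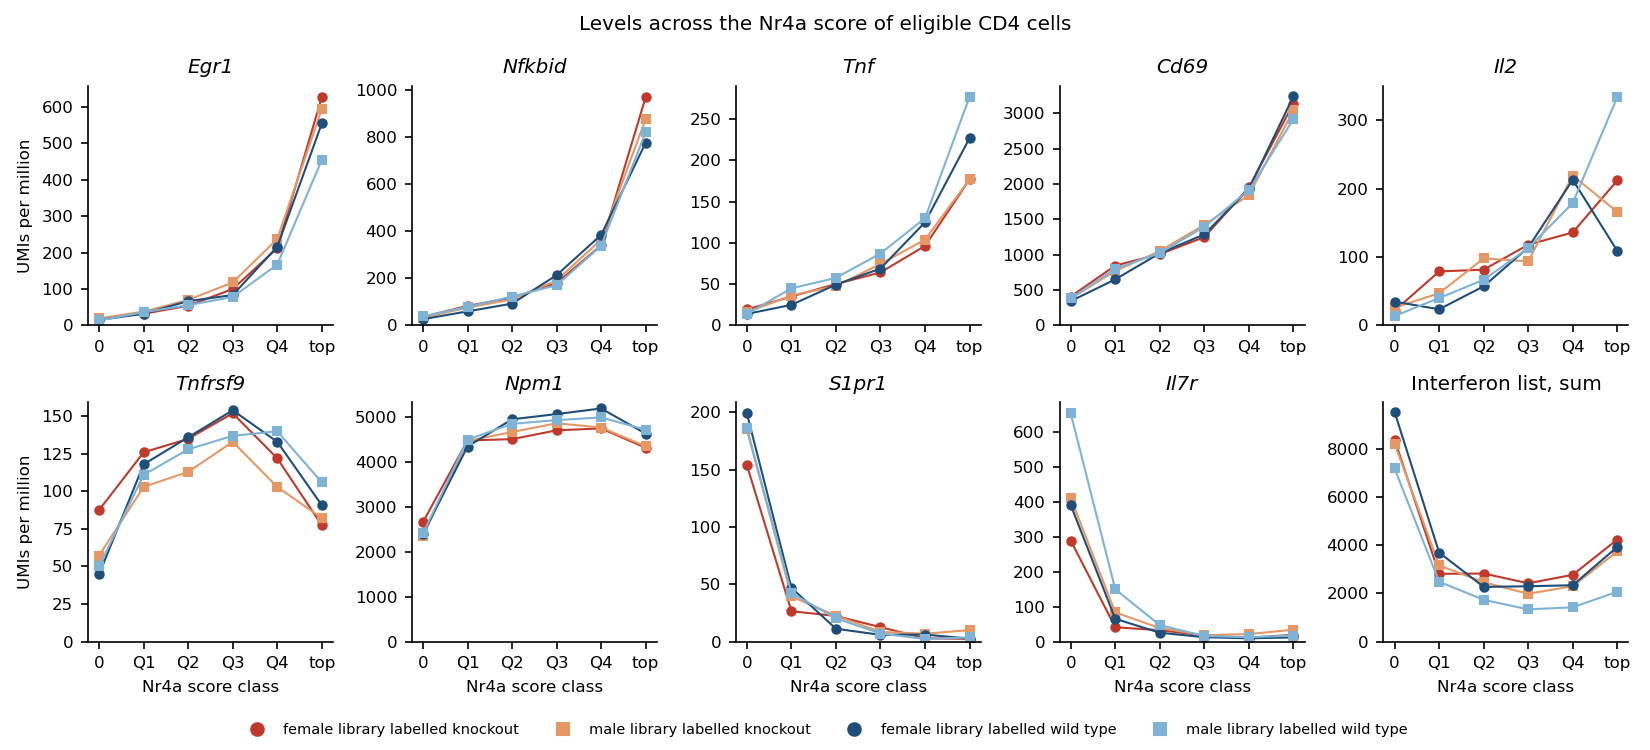
CPM (linear axis from 0) of 9 genes, and of the summed interferon response list, across Nr4a score classes: cells with no Nr4a UMI (0), the 4 equal classes of the remaining cells with an Nr4a UMI (Q1 to Q4) and the highest-Nr4a cells (top), 1 line per library. Egr1, Nfkbid, Tnf and Cd69 rise to the last class, Tnfrsf9 peaks in the middle classes (mean 144 CPM in Q3 and 89.1 CPM in the top class), S1pr1 and Il7r fall early, and the interferon list is highest at 0, lowest in the middle and higher again in the top class.

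A closer comparison, chosen after the data had been seen, set the members against Q4 (652, 739, 218 and 549 cells), the cells just below the boundary. It too separates cells by the rule and is a description. It called 2143 of 8445 genes (25.4%), 1144 higher (13.5%) and 999 lower (11.8%), with a median of -0.01. Immediate early factors were again higher, in 18 of 23 cases with 2 lower (median 0.87), as were 16 of 20 NF-κB genes with 2 lower (median 0.47), 15 of 19 genes of the activation list with none lower (median 0.37) and 11 of 16 cytokines with 2 lower (median 0.61). Ribosome biogenesis genes were higher in 14 of 31 and lower in 4 (median 0.05), naive and recirculation genes higher in 4 of 21 and lower in 8 (median -0.19), and cytosolic ribosomal protein genes lower in 24 of 27 (median -0.11). Il7r and Ifit3, lower than in all remaining cells, were higher than in Q4, by 0.61 and 0.98. Their levels were low in both classes: Il7r was at 19.6, 34.0, 12.0 and 17.1 CPM in members and 10.9, 21.6, 9.42 and 12.6 CPM in Q4.

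Interferon response genes differed in direction with the cells compared. Against all remaining cells, 20 of 42 tested genes were lower and 6 higher, with 16 not called (median -0.22; -0.09, -0.12, -0.20 and -0.76 within the single libraries). Against Q4, 29 of 35 were higher and none lower (median 0.93). Against the cells with 2 or more Egr3 UMIs, all 36 tested genes were lower (median -0.97). The sum over the list was 8372, 8208, 9521 and 7178 CPM at a score of 0, 2768, 2297, 2337 and 1420 CPM in Q4, 4232, 3737, 3925 and 2069 CPM in members and 7752, 5274, 6403 and 3960 CPM in the Egr3 cells. The order of these 4 classes was the same in every library, and the library labelled male WT was lowest in each. Irf7, the factor that amplifies the interferon response, was at 28.5, 23.4, 24.8 and 4.76 CPM in members, against 11.1, 6.87, 8.48 and 2.29 CPM in Q4 (log2 difference 1.5) and 64.5, 36.6, 42.5 and 21 CPM in the Egr3 cells (log2 difference -1.11). Rtp4, another interferon-induced gene, also lay between Q4 and the Egr3 cells in every library, at 46.1, 26.3, 32.5 and 12.3 CPM in members, 15.5, 11, 16 and 2.61 CPM in Q4 and 93.1, 53.5, 70.9 and 33.4 CPM in the Egr3 cells. Irf7 and Rtp4 were chosen after their values had been seen.

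**Figure D3:**
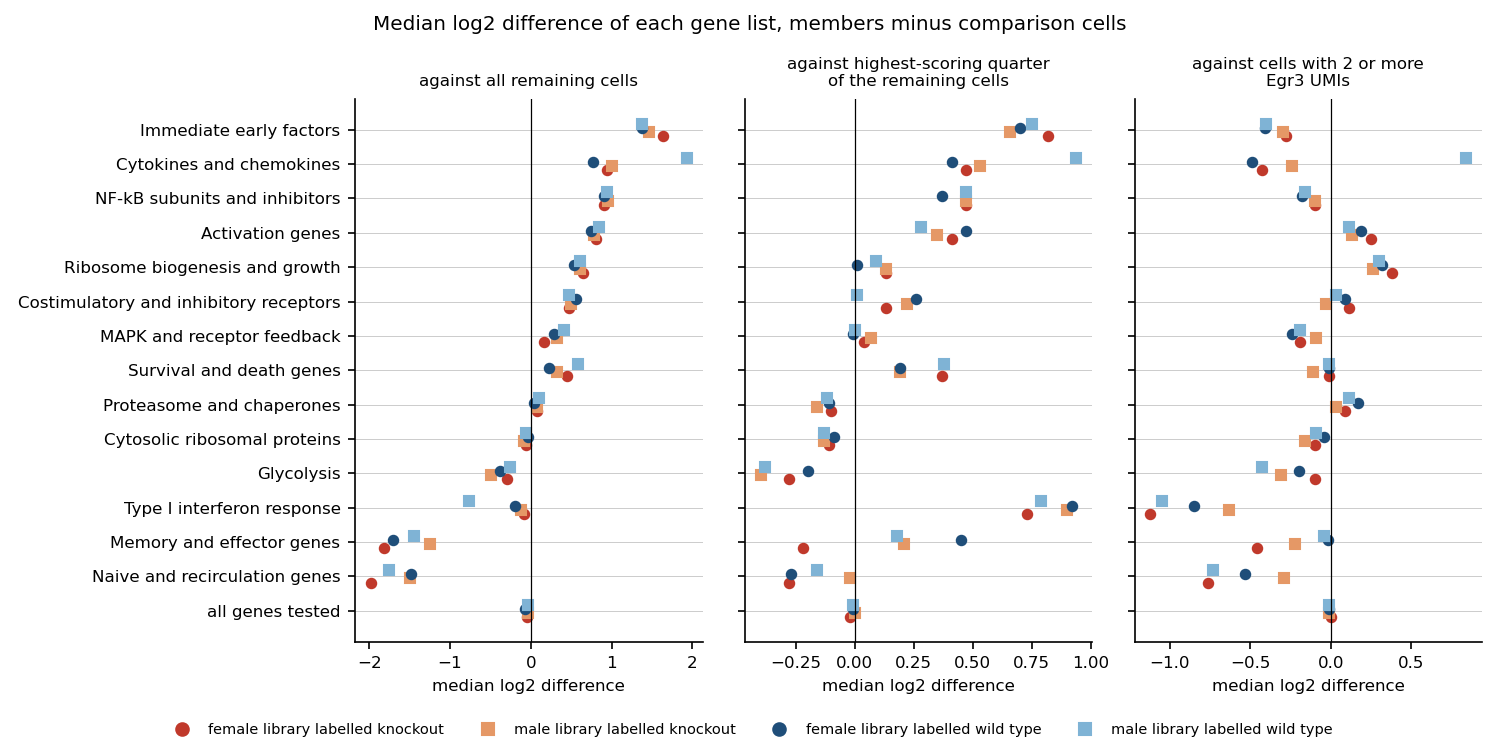
Median log2 difference of each gene list, members minus the comparison cells, in each of the 4 libraries (points), for 3 sets of comparison cells (the middle panel is Q4); the last row is the median of all genes tested. The interferon response lies below 0 against all remaining cells and the Egr3 cells and above 0 against Q4, while immediate early factors lie above 0 in the first 2 panels and below 0 against the Egr3 cells.

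Members and the cells with 2 or more Egr3 UMIs, both high in Nr4a, were compared to see what the Egr3 limit of the rule separated. It called 2450 of 8308 genes (29.5%), 1090 higher in members (13.1%) and 1360 lower (16.4%), with 19 higher and 259 lower by more than 1 on the log2 scale and a median of -0.01 over all genes. All 31 ribosome biogenesis genes were higher in members (median 0.31), for example Nop56 at 927, 931, 896 and 911 CPM against 644, 735, 667 and 633 CPM. Immediate early factors were lower in 15 of 23 and higher in 3 (median -0.32), with Egr1 at 1390, 1080, 1490 and 1030 CPM in the Egr3 cells (log2 difference -1.17). Egr1, Egr2 and Egr3 belong to 1 gene family, and the rule set the limit on Egr3, so these values are a description. Tnf and Nfkbid were lower in members by -0.58 and -0.28.

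Other genes with large differences from the Egr3 cells had other roles. Ntrk3, a neurotrophin receptor, was at 55.3, 46.8, 51.4 and 47.0 CPM in members against 18.4, 22.5, 17.7 and 13.4 CPM (log2 difference 1.42, SE 0.127, adjusted p = 1.08e-10). Swap70, a guanine nucleotide exchange factor, was higher by 1.10, Ramp3, a partner of the calcitonin-family receptors, by 0.91, and Myb, a factor of immature and proliferating blood cells, by 0.85. Tnfrsf9 was higher by 0.70, at 77.4, 82.2, 90.8 and 106 CPM against 52.9, 46.6, 43.1 and 67.0 CPM. Zfp36, which encodes the mRNA-destabilizing protein tristetraprolin, was lower by -1.53, and Samhd1, a nucleotide hydrolase that interferons induce, by -1.52. Of 8305 genes tested in both comparisons, 951 were higher in members than in both other classes and 946 lower than in both, while 233 were higher than in the remaining cells and lower than in the Egr3 cells. Both comparisons share the members, so these counts are a description. DESeq2 called 1140 genes here, and the fit without the library term 1392.

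Members also differed by which family gene led. Nr4a1 alone had the most UMIs in 68.7%, 63.6%, 71.4% and 78.2% of members (344, 336, 105 and 295 cells), and Nr4a3 alone in 24.4%, 27.5%, 21.8% and 15.4% (122, 145, 32 and 58 cells). Nr4a2 led in 1.80 to 3.60%. Members led by Nr4a3 were compared with members led by Nr4a1, and 14 of 6125 genes were called (0.229%), 6 higher and 8 lower. The same Nr4a UMIs that chose the cells set these classes, so calls, sizes and adjusted p-values are given as a description. Il2 was lower in members led by Nr4a3, at 106, 68.8, 15.2 and 164 CPM against 233, 228, 149 and 319 CPM in members led by Nr4a1 (log2 difference -1.36, SE 0.129, adjusted p = 3.52e-09). These UMIs lay in 12, 13, 1 and 11 cells led by Nr4a3 and 36, 30, 15 and 50 led by Nr4a1, and 1 cell held 324 of the 505 UMIs of the second class in the library labelled male KO. Without the cell with the most Il2 UMIs in each class, the levels were 74.4, 53.0, 0 and 103 CPM against 169, 82.2, 87.0 and 256 CPM. Also called lower were Egr1 (-0.53), Dusp2 (-0.43), Junb (-0.35), Ier2 (-0.34) and Cd69 (-0.23), each in all 4 libraries. Cxcl10, a chemokine that interferon gamma induces, was lower by -0.78. In the other direction, Tnfrsf9 was at 95.9, 111, 114 and 141 CPM against 69.7, 64.6, 76.3 and 99.6 CPM (log2 difference 0.61, adjusted p = 0.00599). Cd40lg, the CD40 ligand through which helper T cells act on B cells, was higher by 0.46 (adjusted p = 0.0351). Ccl4, a chemokine, was higher by 1.29 in the fit but not in the library labelled male KO, where it was at 73.9 against 84.5 CPM. It was found in 8, 9, 2 and 12 members led by Nr4a3, whose top 5 cells held 90.9 to 100% of its UMIs. In the library labelled female WT, 69 of 99 UMIs lay in 1 cell, with 377 CPM and 119 CPM without it. These calls rest on as few as 32 cells in a library: 5 genes were called without the library labelled male KO and 9 without female WT, DESeq2 called 6, and the fit without the library term in edgeR called 0, against 372 genes at an unadjusted p under 0.05 with that term.

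**Figure D4:**
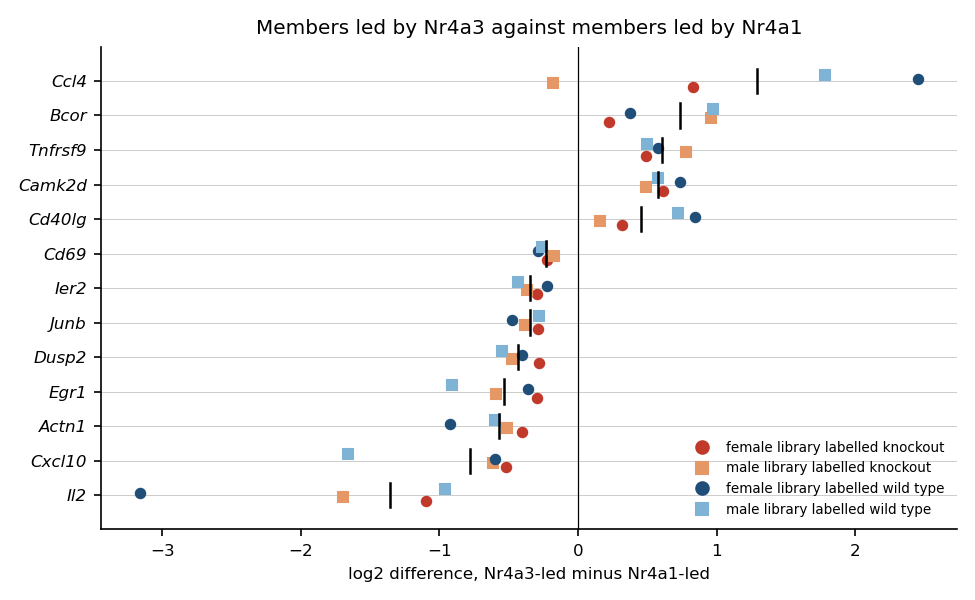
Log2 difference of members led by Nr4a3 minus members led by Nr4a1 for 13 called genes, with 1 point per library and a black bar at the fitted value. Il2, Egr1 and Cd69 lie below 0 in all 4 libraries, Tnfrsf9 and Camk2d above 0 in all 4, and Ccl4 on both sides.

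The study's own question, the difference between genotypes, was asked of the members and of their frequency. A share of 10% in each library is fixed by the rule, so a common boundary was used for the frequency: at 23.9 Nr4a UMIs per 10000 UMIs, 10.3% (exact 95% binomial interval 9.46 to 11.2%), 9.72% (8.94 to 10.6%), 12.2% (10.5 to 13.9%) and 7.82% (6.99 to 8.73%) of eligible cells lay above it. The mean was 10.0% ± 0.40 (SD, n = 2) for the label KO, and 9.99% ± 3.07 (SD, n = 2) for WT, a difference of 0.013 percentage points (two-sided exact permutation test, p = 1; 2 libraries against 2 cannot give a p under 0.333). The 2 libraries labelled WT held the highest and the lowest share, and the difference was 2.18 points without the female and -2.15 points without the male one. Over all eligible cells, with 66 of 12360 genes called (0.534%), Nr4a1 was at 429, 415, 455 and 381 CPM (log2 difference -0.05, adjusted p = 0.952), Nr4a2 at 81.9, 91.9, 113 and 81.8 CPM (-0.21, adjusted p = 0.777) and Nr4a3 at 294, 304, 362 and 240 CPM (-0.04, adjusted p = 0.971). For all 3 genes the female and the male pair of libraries differed in opposite directions.

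Within the members, 20 of 8269 genes were called between the labels (0.242%), 12 higher and 8 lower in libraries labelled KO, with sex as a covariate. Sp110 and Sp140, neighbouring genes of the nuclear-body protein family (GRCm38 chr1:85576899-85598817 and chr1:85600378-85645037), had the largest differences: Sp110 was at 0, 0.571, 110 and 87.1 CPM (log2 difference -8.06, adjusted p = 6.19e-09) and Sp140 at 0, 0.285, 26.6 and 17.1 CPM (-6.68, adjusted p = 4.06e-05), so that the libraries labelled KO had almost none. The fitted sizes depend on the prior count where a library is at 0. Irf5 was at 11.2, 12.8, 1.71 and 0.56 CPM, against the labels as over all cells. Tnfrsf4, which encodes the costimulatory receptor OX40, was at 518, 511, 323 and 326 CPM (log2 difference 0.59, adjusted p = 0.00993). Gpr183, a chemoattractant receptor for oxysterols that positions T cells, was at 444, 372, 295 and 161 CPM (0.84, adjusted p = 0.00709). Ncoa7 at 130, 99.3, 48.8 and 41.7 CPM, Filip1l at 76.1, 73.6, 34.3 and 24.9 CPM and Jaml, an adhesion molecule, at 31.7, 30.2, 13.7 and 4.20 CPM were higher in both libraries labelled KO. Ikzf2, which encodes the factor HELIOS, was higher by 1.14 and Klf2, a factor of quiescence, by 0.97. Most of the 12 higher calls depended on the fit. DESeq2 called 2 genes higher and 2 lower, and edgeR without the sex term 3 higher and 3 lower.

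Of 15 tested genes of the cytokine list, 4 were called, Ifng higher and Csf2, Ccl4 and Tnf lower, beside 0.242% of all genes. For all but Tnf the transcripts lay in few cells. Fits of the labels with 1 library left out have no sex term, which 3 libraries leave no room for, and 1 of their arms is a single library whose spread is assumed to be that of the other label. Csf2, which encodes GM-CSF, was at 8.02, 10.8, 92.5 and 32.5 CPM (log2 difference -2.54, adjusted p = 0.000908). In the library labelled female WT 1 cell held 94 of the 108 Csf2 UMIs, and without that cell the level was 12.1 CPM. With 1 library left out the difference ranged from -1.83 (without female WT) to -3.33 (without male WT), and it was -1.16 when the top 20% of cells were taken. Its call was lost when the top 5% were taken (adjusted p = 0.0575). Without the sex term none of Csf2, Ifng, Ccl4 and Tnf was called (adjusted p = 0.0914, 0.64, 0.205 and 0.205 in edgeR). Ifng, which encodes interferon gamma, was at 10.0, 69.3, 5.14 and 13.7 CPM (2.09, adjusted p = 0.000908), but 1 cell held 231 of the 243 UMIs of the library labelled male KO, where the level without it was 3.44 CPM. Without that library the difference was -0.19 (adjusted p = 1). Ccl4 was at 127, 104, 164 and 312 CPM (-1.13, adjusted p = 0.0243). In the library labelled female WT 10 members had any, and the top 5 of them held 88.5% of its UMIs. Without the cell with the most UMIs in each, the libraries labelled female KO and female WT were at 113 and 105 CPM, so the female pair turned direction. After thinning, a Ccl4 UMI was found in 6.39%, 3.98%, 5.44% and 9.02% of members and in 2.69%, 1.18%, 2.87% and 2.77% of remaining cells. It was found in 7.69% of the 52 erythroid cells (exact 95% interval 2.14 to 18.5%), which are too few to set a background level. The call was lost without the library labelled male WT (-0.58, adjusted p = 0.12). Tnf was at 177, 177, 227 and 277 CPM (-0.59, adjusted p = 0.0437), with transcripts in 200, 253, 86 and 243 members, and at most 32 UMIs in 1 cell. Without the sex term it was not called with all 4 libraries (-0.60), nor without the library labelled female KO (-0.60, adjusted p = 0.487), male KO (-0.59, adjusted p = 0.197) or male WT (-0.43, adjusted p = 0.161), while it was called without female WT (-0.73, adjusted p = 0.000436). With the sex term in edgeR, Tnf was called without cells with UMIs of other types (-0.61, adjusted p = 4.34e-05). It was also called when the top 20% were taken (-0.52, adjusted p = 0.0113), but not with the top 5% (-0.52, adjusted p = 0.324). DESeq2 called none of the 4 cytokine genes (adjusted p = 1 for each; Tnf -0.59). Nfkbid, at 971, 878, 777 and 822 CPM, was not called.

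**Figure D5:**
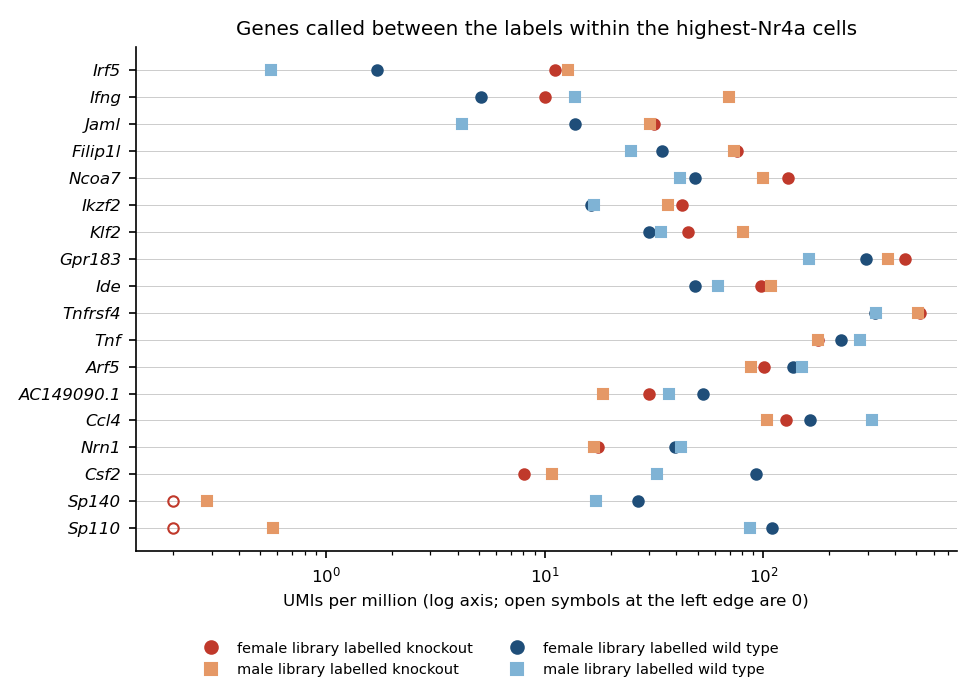
CPM (log axis) within the highest-Nr4a cells for the 17 genes named from the genotype comparison and Irf5, 1 point per library; open symbols at the left edge are values of 0. The libraries labelled KO lie to the right for Tnfrsf4, Gpr183 and Ncoa7 and to the left for Sp110, Sp140 and Csf2, and Irf5 is higher in the libraries labelled KO.

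At 0.242% of all genes called, lists of this size would hold few or no called genes, so counts of 0 say little. The cytokine list, with 4 of 15 genes called, is given above. None of 23 immediate early factors, 20 NF-κB genes and 31 ribosome biogenesis genes was called within the members, with medians of 0.03, 0.01 and -0.07 beside 0.01 over all genes. None of 37 interferon response genes was called, with a median of 0.54 that was 0.11 between the female libraries and 0.87 between the male libraries; 628 genes in all had an unadjusted p under 0.05 in edgeR. DESeq2 called 4 genes within the members. Without the sex term edgeR called 6 genes with all 4 libraries, 260 without the library labelled female WT, whose 147 members were the fewest, and 18 to 30 without each of the others. These counts are not set against the 20, since the library and the sex term were dropped together.

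Whether genotype differences were different in members and in remaining cells was tested with an interaction of class and label, and 45 of 10493 genes were called (0.429%), 29 of them with a more positive difference in members. In 37 of the 45 the female and the male pair of libraries both had the sign of the fit. Csf2 was among them (-3.19, adjusted p = 3.77e-15), although its member level in the library labelled female WT rests on 94 of 108 UMIs in 1 cell, as above, and in remaining cells it was at 7.28, 13.2, 4.69 and 6.59 CPM. So was Ccl4 (-0.67, adjusted p = 0.000833), at 45.4, 32.4, 62.2 and 48.9 CPM there. For Ccl4 the pairs went opposite ways (0.10 in the female and -0.97 in the male pair). Tnf was not (-0.27, adjusted p = 0.470). Nfkbid was called at a small size: the 2 classes differed by 3.02, 2.76, 2.52 and 2.64 on the log2 scale, and the interaction was 0.29 (adjusted p = 0.00805). Of 43 tested interferon response genes, 5 were called with a more positive difference in members (11.6%, beside 0.276% of all genes) and none with a more negative one, with a median of 0.29 beside 0.03. Among them were Gbp2 (0.39), Gbp4 (0.35), Ifi27l2a (0.38) and Parp14 (0.42). The male pair of libraries gave 0.575, 0.574, 0.647 and 0.475 for these genes and the female pair 0.145, 0.033, -0.003 and 0.295, and the library labelled male WT had the lowest interferon list sum, whose part in this was not tested. Samhd1 (0.70), outside the list and chosen after its value was seen, was lower in members than in remaining cells by less in the libraries labelled KO. DESeq2 called 2 genes in this test, and leaving out 1 library gave 26 (female KO), 22 (male KO), 91 (female WT) and 26 (male WT).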

How the data were processed

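Splenic CD4 T cells of 4 libraries were measured by droplet 3′ RNA sequencing. The authors deposited raw UMI counts of every gene and barcode, without normalization, made with Cell Ranger 6.0.2 on mm10 per the submitters' processing notes; per the file headers the version was 4, and which is right is not settled here. Whether counting used strand is not given in the sources used here. Cells were filtered and scored as the report states, and doublets were kept. Counts were summed per library and class and tested with edgeR 4.0.16 in R 4.3.3 (quasi-likelihood fit, TMM scaling, filterByExpr, Benjamini-Hochberg), with the library as a block between classes and sex as a covariate between labels. Log2 differences are fitted values and CPM are unscaled. The scripts were tested on simulated data. Thinning drew 2000 UMIs per cell without replacement in Python 3.11.15. Intervals and the limit of a count of 0 (3 counts) cover counting error only. Members and gene lists were chosen with earlier results of these data known. Named genes were the 15 largest called differences in each direction against remaining cells (50 CPM or more in the higher class), up to 4 per list, the 10 largest in each other comparison (20 CPM or more between labels), the 5 largest interactions and the given markers; a selection is printed, and some genes are not reported here. Alternatives were DESeq2 1.42.0, no filter, no library or sex term, each library left out, shares of 5% and 20%, thinned or split UMIs, equal depth, and removal of doublets or of cells with UMIs of other cell types.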

Additional observations from a re-analysis of the deposited data

Results flagged for a closer look

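In 5 genes the difference between libraries labelled KO and WT was not the same in members and in remaining cells, by the interaction test in edgeR. These are the largest differences among the 45 genes called in that test, and in each most UMIs behind it lay in 1 to 5 cells.

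Hist1h1a, a linker histone of dividing cells, had an interaction of 9.225 on the log2 scale (adjusted p = 0.0223). It was at 0.401, 7.70, 0 and 0 CPM in members, and 25 of the 27 UMIs of the library labelled male KO were in 1 cell. Cenpf, a kinetochore gene, had an interaction of -4.949 (adjusted p = 0.00805). It was at 0, 0.285, 0.857 and 4.48 CPM in members, and 15 of the 16 UMIs of the library labelled male WT were in 1 cell.

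The other 3 are immunoglobulin genes, and their signal lay in the remaining cells of the library labelled female KO. Igkc had an interaction of -5.188 (adjusted p = 4.21e-11), at 431, 3.36, 9.96 and 2.00 CPM in remaining cells, with 98% of the 10966 UMIs of that library in 5 cells. Jchain had an interaction of -5.95 (adjusted p = 2.33e-05), at 71.6, 0.711, 3.18 and 0.143 CPM, with 97.8% of 1821 UMIs in 5 cells. Igha had an interaction of -4.038 (adjusted p = 0.00851), at 34.7, 0, 8.79 and 0.0285 CPM, with 828 of 882 UMIs in 1 cell. The summed B cell list reached 680 CPM in remaining cells and 120 CPM in members, and its part in these 3 results was not tested. For Igkc and Igha the male pair of libraries had the opposite sign (1.06 and 0.29).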

How the results depend on the processing

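Counts of called genes moved more than directions did. Against the remaining cells, 6257 genes were called, and 5485 to 6182 with 1 library left out. Against only Q4 there were 2143, and there Il7r (0.607, edgeR adjusted p = 0.00105) and Ifit3 (0.977, 0.00723) were called higher. Not called, with adjusted p of 0.083 to 0.999, were Rflnb (0.359), S1pr1 (0.249), Cnp (0.466), Herc6 (0.717), Slfn5 (0.499), Igkc (0.592) and Cct2 (0). Ifit3 was at 0.073 against remaining cells with an Nr4a UMI (adjusted p = 0.795). Igkc was at 0.417 without cells with UMIs of other types (adjusted p = 0.144) and at 0.332 against cells of equal depth (0.336), and ranged from -4.52 to 0.309 with 1 library left out.

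Against the Egr3 cells, DESeq2 called 1140 genes and the fit without the library term 1392. Between labels within members, 20 genes were called; DESeq2 gave 4, no filter 107, no sex term 6, the top 5% 8, the top 20% 50, a score after thinning 77, and no cells with UMIs of other types 114, with 18 to 260 when 1 library was left out. Label fits with 1 library left out also drop the sex term and have 1 arm of a single library, assumed to vary like the other. Over all eligible cells the count of 66 became 20 with DESeq2, 272 without the filter, 9 without the sex term and 31 to 291 with 1 library left out (291 without female WT, 120 without male KO, 31 without male WT). The interaction count of 45 became 2 with DESeq2 and 22 to 91. For members led by Nr4a3 the count of 14 became 6 with DESeq2, 31 without the filter, 0 without the library term and 5 to 15.

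With 1 library left out, the difference in share ranged from -2.15 to 2.18 points (-0.269 without female KO), and it was -0.128 at the 80th percentile. The ranges were -0.192 to 2.961 for Ifng within members, -4.044 to 0.297 for the interaction of Igha, and -0.156 to 0.056 and -0.32 to 0.227 for Nr4a1 and Nr4a3 over all eligible cells. Of 153 named results, 28 lost their call with DESeq2. The cause of these changes was not tested. Replicate numbers coincide with sex, so the sex term of the label comparison is also the replicate block, and the fit without it called 6 genes within members. The library labelled female WT had the fewest members, 147, and what that number limits was not tested.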

Other observations

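Several of the largest differences between members and remaining cells lay outside the fixed gene lists. Lcp2, which encodes the adaptor SLP-76 that relays T cell receptor signals, was at 861, 785, 831 and 594 CPM in members against 169, 177, 189 and 131 CPM (log2 difference 2.30). Trib1, a pseudokinase, was at 158, 171, 116 and 76.7 CPM against 32.1, 35.9, 29.4 and 16.3 CPM. Prnp, the prion protein gene, was at 79.4, 71.9, 67.7 and 26.6 CPM against 17.1, 13.3, 16.4 and 5.08 CPM. In all 3 genes the library labelled male WT was lowest in both classes. Among genes that were lower, Pdcd4, an inhibitor of translation, was at 21.6, 26.3, 19.7 and 10.4 CPM against 135, 118, 104 and 100 CPM.

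The rule left out cells with a Foxp3 UMI, and the other regulatory T cell markers were mixed in members. The summed list of 12 genes was at 850 to 1020 CPM in members and 549 to 706 CPM in remaining cells. Of 9 tested, 4 were higher, 3 lower and 2 not called. Il2ra, the high-affinity chain of the IL-2 receptor that activated T cells also make, was at 515, 489, 542 and 481 CPM against 291, 264, 315 and 261 CPM. Lrrc32 and Tnfrsf18 were higher by 1.38 and 0.68. Ikzf2 and Nrp1 were lower by -0.50 and -4.08, and Ctla4 was at 19.2, 20.8, 30.8 and 12.0 CPM against 32.0, 23.0, 26.1 and 16.1 CPM (log2 difference -0.21, adjusted p = 0.159).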
